A study of Bos taurus with 2 samples.

Results

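The cells described here are fibroblasts of the newborn bovine mammary gland in which PTX3, CCL2 and SAA3 together gave a large share of all messenger RNA. They were chosen from the newborn library by these 3 genes themselves. A cell barcode was taken as a fibroblast when it had at least 300 detected genes, at least 3 of the 4 markers COL1A1, COL3A1, DCN and LUM, and no count of the mast cell genes CPA3 and MS4A2. It was taken as a member when PTX3, CCL2 and SAA3 made up 5% or more of its unique molecular identifiers (UMIs), the counted RNA molecules. By this rule 2334 of 11655 newborn fibroblast barcodes were members, a share of 20.0% (exact binomial 95% interval 19.3 to 20.8), out of 13772 barcodes in the newborn library and 29669 in the series. They were set against the 6018 fibroblast barcodes of the same library in which the 3 genes stayed under 1%. The other 3303 lay between.

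Mammary gland of a newborn (1 library) and of an adult in lactation (1 library) was sampled from Holstein dairy cattle. Tissue was cut, freed of fat, treated with EDTA and digested at body temperature with hyaluronidase, collagenases and DNase before droplet capture with the 10x Genomics 3' chemistry, a route on which fat cells and tightly bound cells may drop out. With a single library per stage, cells are not replicates and no test was possible. Differences are described by their size, and all intervals cover counting error only.

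PTX3 is a soluble pentraxin that binds microbes and complement proteins, CCL2 is the chemokine that draws monocytes out of the blood, and SAA3 is a serum amyloid A protein made outside the liver in the acute phase response. Fibroblasts make such products when microbial ligands, IL1 or TNF reach their receptors and NF-kB factors enter the nucleus. PTX3 also joins TNFAIP6 and the heavy chains of inter-alpha-inhibitor in cross-linking hyaluronan, the long sugar polymer of loose connective tissue. Heat shock and immediate early genes are a separate and fast response, driven by HSF1 and by kinase cascades.

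The share of the 3 genes, which chose the members, had 2 humps across newborn fibroblast barcodes. The median was 7.74% of UMIs in members, with a range of 5 to 24.1%, and 0.225% in barcodes under 1%. On a log scale the fullest interval of all was 5.61 to 6.29%, with 355 barcodes, and the thinnest between the humps was 1.41 to 1.58%, with 176. The limit of 5% therefore cut through the upper hump: 250 members lay at 5 to 5.5%, and 293 barcodes lay just outside at 4.5 to 5%. Barcodes under 1% held about as much of the 3 genes as cells of other types in the same library. The median was 0.204% in 104 mast barcodes with at least 10 UMIs of CPA3 and MS4A2, 0.143% in 119 barcodes with at least 10 UMIs of endothelial markers, and 0.126% in 119 barcodes with at least 5 UMIs of T and NK cell markers.

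**Figure D1:**
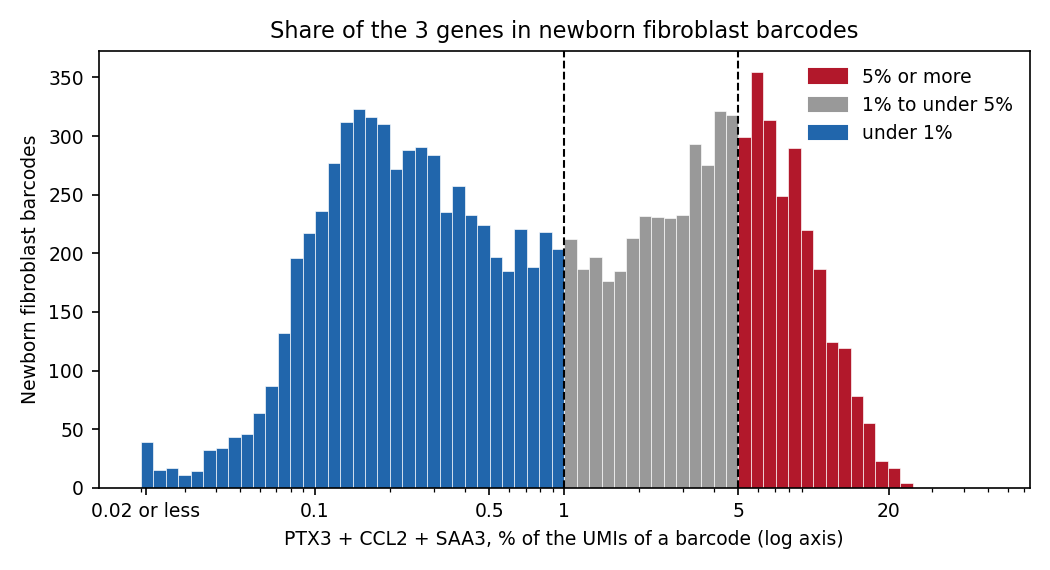
Number of newborn fibroblast barcodes (vertical axis) by the percentage of their UMIs from PTX3, CCL2 and SAA3 (horizontal log axis, values under the lowest interval placed in it), with dashed lines at 1% and 5%. The 2334 members (red) are the upper part of a hump whose fullest interval is 5.61 to 6.29%, and the 6018 barcodes under 1% (blue) form the other hump.

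The members were mainly PTX3 and CCL2 cells, and the label's last gene, SAA3, was shared by a minority of them. PTX3 had a median of 4.70% of UMIs in members, from 0 to 13.5%, against 0.125% in barcodes under 1%, and 3 members had none. CCL2 had a median of 1.97% in members, from 0 to 19.1%, against 0.0359% under 1%, and 57 members had none. SAA3 had a median of 0.0202% in members, which was 1 UMI, and 838 members (35.9%) had none. The highest member nevertheless gave 16.8% of its UMIs to SAA3, and the 90th percentile of members was 4.65%. These 3 distributions are descriptions, since they set the membership.

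PTX3 and CCL2 together, without SAA3, was the commonest combination. At 1% of UMIs or more for each gene, 1118 members (47.9%) had PTX3 and CCL2 but not SAA3, 489 (21%) had PTX3 alone, 324 (13.9%) had all 3, and 273 (11.7%) had PTX3 and SAA3. PTX3 was the most abundant of the 3 in 1459 members (62.5%), CCL2 in 576 (24.7%), SAA3 in 291 (12.5%), and 8 were tied. Over all 11655 newborn fibroblast barcodes of this library, the log shares of PTX3 and CCL2 had a Pearson correlation of 0.56 (Spearman 0.54). PTX3 and SAA3 had 0.14 (0.09), and CCL2 and SAA3 had 0.12 (0.07). Depth and free RNA are common to all these barcodes.

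The members and their counterparts had passed the same fibroblast rule, and the members were somewhat deeper. All 4 fibroblast markers were found in 78.2% of members and 79.0% of barcodes under 1%. These markers had chosen both groups, so the shares are descriptions and cannot test whether the members were fibroblasts. A member had a median of 6019.5 UMIs, 1515 genes and 1.03% mitochondrially encoded UMIs, against 4257 UMIs, 1348 genes and 1.28% under 1%. With every cell thinned to 1000 UMIs of other genes, the median was 499 genes in 2321 members and 510 in 5639 barcodes under 1%, which left out 13 and 379 shallower barcodes. Of the members, 8 (0.343%) carried a barcode sequence also found in the adult library. The mast cell criterion had removed 401 of 12056 barcodes, 194 of them for a single UMI, and 55 of the 401 were at 5% or more.

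Markers of other cell types were at trace levels in both groups and mostly lower in members. Values are in counts per 1000000 (CPM) of all UMIs other than those of PTX3, CCL2 and SAA3, the scale used from here on. The 13 blood endothelial markers summed to 7.67 CPM in members and 99.0 CPM under 1%, with 11 and 13 of them detected and TIE1 and SELE at 0 in members. In members the 7 lymphatic markers summed to 9.18 CPM, smooth muscle and pericyte markers to 14.5 CPM, T and NK markers to 5.52 CPM, B and plasma cell markers to 3.16 CPM, dendritic cell markers to 4.16 CPM, neutrophil markers to 2.58 CPM and epithelial markers to 1.29 CPM. Under 1% the lymphatic markers summed to 55.3 CPM, smooth muscle and pericyte markers to 41.4 CPM, T and NK markers to 17.8 CPM, B and plasma cell markers to 19.4 CPM, dendritic cell markers to 27.7 CPM, neutrophil markers to 20.8 CPM and epithelial markers to 5.01 CPM. The 14 macrophage and monocyte markers were level, at 122 CPM in members and 121 CPM under 1%, and all 14 were detected in both. Leaving out every barcode with at least 3 UMIs of endothelial, T and NK, B and plasma cell or neutrophil markers gave 574 genes higher and 1096 lower in members, against 555 and 1097 with them.

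Outside the 3 genes, the members differed from the low fibroblasts over much of the transcriptome. Of 6218 genes with a mean of at least 10 CPM in the 2 groups, 555 (8.93%) were at least 2-fold higher in members and 1097 (17.6%) at least 2-fold lower. The median log2 ratio of these genes was -0.28, so a typical gene was 1.21-fold lower in members on this scale. That median depended on the filter: it was -0.00 over genes of at least 50 CPM and -0.56 with no filter beyond 20 UMIs. Values relative to all genes below use -0.28 and would shift with the filter. With ratios centred on that median, 847 genes were higher and 592 lower, which moved the share of higher calls to 58.9% from 33.6%. List medians are therefore given both as measured and relative to the median of all genes. Counts of called genes in the lists below are to be read against the 8.93% higher and 17.6% lower of all genes.

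**Figure D2:**
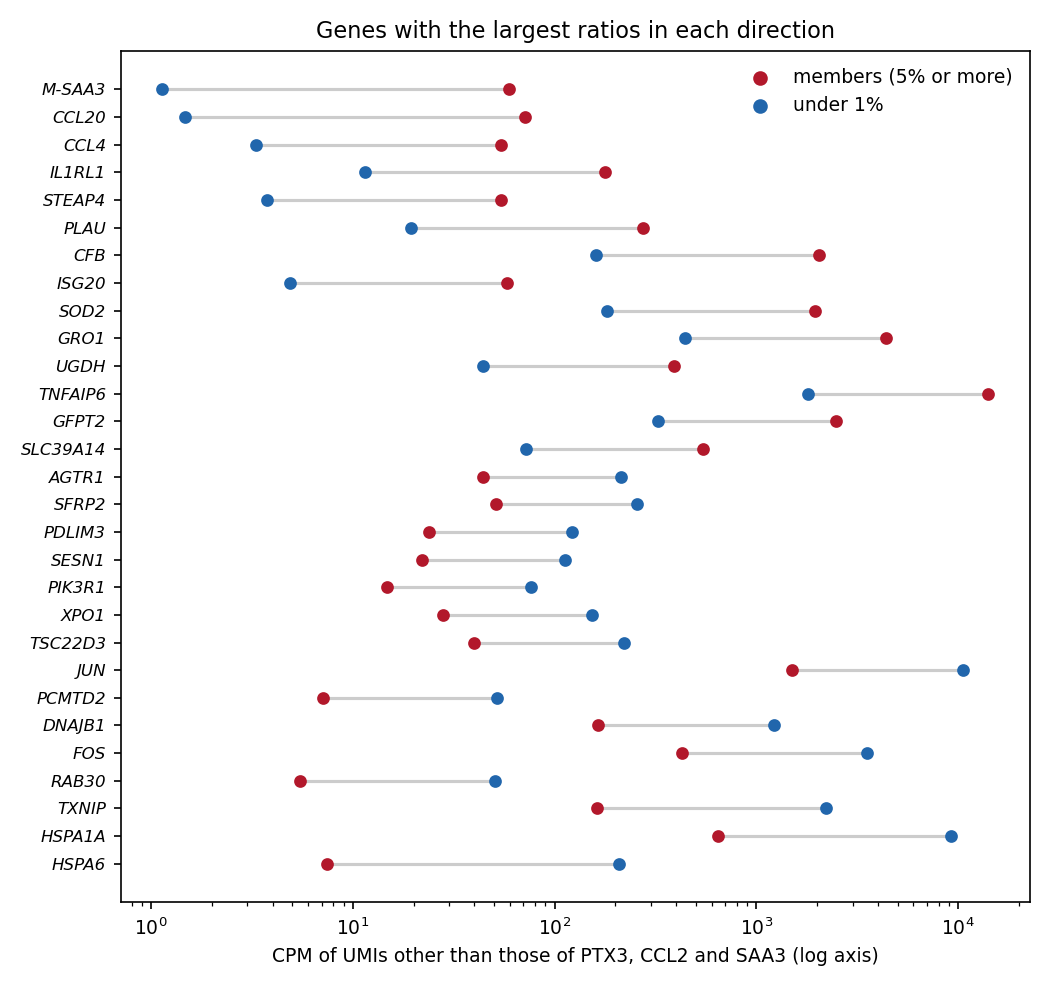
Level of 14 genes among those with the largest ratio and of the 15 with the smallest, in members (red) and in barcodes under 1% (blue), as CPM of UMIs other than those of PTX3, CCL2 and SAA3 (log axis). TNFAIP6 stands at 14113 CPM in members and 1792 CPM under 1%, and HSPA1A at 647 CPM in members and 9213 CPM under 1%.

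The most abundant product that set the members apart was TNFAIP6, the hyaluronan-binding protein that moves heavy chains onto hyaluronan. It had 14113 CPM in members and 1792 CPM under 1%, a ratio of 7.88 (7.80 to 7.96). By cell, its median share of UMIs was 1.07% in members and 0.0507% under 1%, and 78.9% of members lay above the 90th percentile of barcodes under 1%. The 2 groups overlapped: the 10th percentile of members was 0.145%, and the 90th percentile under 1% was 0.336%. After thinning, 93.4% of members and 47.2% of barcodes under 1% held a TNFAIP6 UMI. The share was 22.7% in mast barcodes, which had a median of 1741 UMIs unthinned. As a level, TNFAIP6 had 614 CPM in newborn mast barcodes and 1984 CPM in newborn T and NK barcodes.

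Other genes of the hyaluronan matrix were higher as well. Of 7 measured genes, TNFAIP6 included, 5 passed 2-fold upwards and 0 downwards, with a median log2 ratio of 1.77 (2.05 relative to all genes). HAS2, which makes the polymer, had 73.0 CPM in members and 14.4 CPM under 1%. CD44, its main cell surface receptor, had 554 CPM in members and 162 CPM under 1%, and VCAN, the large proteoglycan that binds it, had 314 CPM in members and 109 CPM under 1%. ITIH5, of the inter-alpha-inhibitor heavy chain family, stood at 54.6 CPM in members and 88.0 CPM under 1%. Enzymes that make the sugar precursors followed, in a list chosen after these data had been seen: 6 of 9 were higher and 1 lower. UGDH, which makes UDP-glucuronic acid, had 392 CPM in members and 44.0 CPM under 1%, a ratio of 8.90 (8.35 to 9.49). GFPT2, the entry enzyme of the hexosamine route, had 2471 CPM in members and 325 CPM under 1%, a ratio of 7.60 (7.42 to 7.78).

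Chemokines that draw neutrophils were the other large group. Of 17 chemokines measured, 11 were higher and 2 lower, with a median log2 ratio of 2.07 (2.35 relative to all genes). Without the 10 richest barcodes of each gene, 7 were higher, as CCL3, CCL4, CCL11 and CCL20 no longer were. CXCL3 had 5758 CPM in members and 1369 CPM under 1%, and GRO1, the bovine counterpart of CXCL1, had 4408 CPM in members and 440 CPM under 1%, a ratio of 10.0 (9.82 to 10.2). CXCL2 had 2350 CPM in members and 321 CPM under 1%, and CXCL5 had 314 CPM in members and 62.9 CPM under 1%. For CXCL5, 10 barcodes under 1% held 75.2% of that group's UMIs, and without the 10 richest of each group its ratio was 13.7 in place of 4.99. CX3CL1, a membrane-bound chemokine for monocytes and T cells, had 169 CPM in members and 34.3 CPM under 1%. CXCL8, the classical neutrophil chemokine, stayed within 2-fold at 71.4 CPM in members and 59.5 CPM under 1%, and CXCL12, a homeostatic chemokine, was on the lower side at 265 CPM in members and 482 CPM under 1%.

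The neutrophil chemokines were spread unevenly over the members. GRO1, CXCL2, CXCL3 and CXCL5 together had a median of 0.320% of UMIs in members, with 10th and 90th percentiles of 0.0162 and 3.17%, against a median of 0.0444% under 1%. Of the members, 48.0% were above the 90th percentile of barcodes under 1%, so the groups overlapped widely. These chemokines were not confined to members: the 119 newborn endothelial barcodes had 8579 CPM of GRO1, 15348 CPM of CXCL3 and 4272 CPM of IL6, each above its level in members. TNFAIP6 stood at 994 CPM and CFB at 162 CPM in those endothelial barcodes, below their levels in members.

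For 2 of the genes with the largest ratios, a few barcodes carried the difference. CCL20, a chemokine for CCR6-bearing lymphocytes, had 71.2 CPM in members and 1.47 CPM under 1%, but 19 members held it and 10 of them held 99.1% of its UMIs. Without the 10 richest barcodes of each group, an alternative chosen after seeing the data, the ratio was 1.57. CCL4, a chemokine of myeloid cells, had 54.1 CPM in members and 3.31 CPM under 1%, with 98.7% of its UMIs in 10 members, and without those barcodes the ratio was 0.579. CCL3 and IL1B had 97.9% and 96.5% of their UMIs in 10 members. The 8 members with at least 5 UMIs of CCL3, CCL4 and IL1B had 3131 CPM of 9 macrophage-defining genes, all 9 detected, against 8.01 CPM in the other 2326 members and 38.7 CPM under 1%. These 8, chosen by CCL3, CCL4 and IL1B, held 1221 UMIs of these 3 genes, against 41 UMIs in the other 2326 members. Their part in the CCL4 value alone was not tested. Leaving out the 10 richest barcodes gene by gene kept 529 of the 555 higher and 999 of the 1097 lower genes.

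M-SAA3, a serum amyloid gene named for the mammary gland, had the largest ratio of all. It had 59.1 CPM in members and 1.13 CPM under 1%, a ratio of 52.3 (36.4 to 78.1), with 145 members (6.21%) holding a UMI. Of its UMIs in members, 72.2% lay in 10 barcodes, and without the 10 richest of each group it had 16.5 CPM in members and 0.716 CPM under 1%, a ratio of 23.0. It and SAA3 are nearly identical copies, so counts split between M-SAA3 and SAA3 are uncertain, and since SAA3 chose the members this ratio is no independent measure.

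NF-kB genes that were called all stood higher in members. Of 19 measured regulators and targets, 10 were at least 2-fold higher and 0 lower, 10 of 19 against the 8.93% of all genes, with a median log2 ratio of 1.27 (1.55 relative to all genes). The precursor subunits NFKB1 and NFKB2 had 409 and 309 CPM in members, against 81.7 and 74.0 CPM under 1%. RELB, their partner in the slower alternative pathway, had 298 CPM in members and 63.0 CPM under 1%. SOD2, the mitochondrial superoxide dismutase and a classical target, had 1942 CPM in members and 182 CPM under 1%, a ratio of 10.6 (10.3 to 11.0). Other regulators on the list were split. TNIP1 had 170 CPM in members and 43.2 CPM under 1%, NFKBIB had 121 CPM in members and 25.9 CPM under 1%, and TNFAIP3 had 432 CPM in members and 179 CPM under 1%. The inhibitor NFKBIA was level at 1572 CPM in members and 1578 CPM under 1%, and NFKBIZ was level at 472 CPM in members and 460 CPM under 1%. RELA, the main activating subunit, had 66.8 CPM in members and 59.6 CPM under 1%.

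The receptors for such signals were higher in part. Of 24 receptors and adaptors, 10 passed 2-fold upwards and 0 downwards (median log2 ratio 0.70, 0.98 relative to all genes). IL1RL1, the receptor for IL33, had 178 CPM in members and 11.4 CPM under 1%, a ratio of 15.6 (13.8 to 17.6). After thinning it was found in 8.40% of members (18.7% unthinned), 0.567% of barcodes under 1% (2.14%) and 8.25% of mast barcodes, a cell type known to carry it. OSMR, the oncostatin M receptor, had 60.2 CPM in members and 11.1 CPM under 1%, CD40 had 51.8 CPM in members and 8.77 CPM under 1%, and IL1R1, the signalling IL1 receptor, had 53.7 CPM in members and 25.4 CPM under 1%. TLR4, the receptor for bacterial lipopolysaccharide, stood at 14.3 CPM in members and 11.4 CPM under 1%, and TNFRSF1A, the main TNF receptor, at 164 CPM in members and 133 CPM under 1%. MYD88, the adaptor of Toll-like and IL1 receptors, was on the lower side at 12.2 CPM in members and 23.7 CPM under 1%.

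Among cytokines IL6 dominated. It had 1790 CPM in members and 339 CPM under 1%, a ratio of 5.28, and 67.1% of members and 30.2% of the others held a UMI. After thinning the shares were 40.5% in members, 12.8% under 1% and 8.25% in mast barcodes. CSF1, the growth factor of macrophages, had 284 CPM in members and 140 CPM under 1% and was the other of 2 called among 7 measured. IL1B had 16.3 CPM in members and 8.54 CPM under 1% and rested on the few barcodes described above.

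Acute phase genes other than the amyloids were mostly within 2-fold, and complement was represented by a single gene. Of 14 acute phase and STAT3 genes, 3 were higher by 2-fold or more and 0 lower (median log2 ratio 0.49, 0.77 relative to all genes). CEBPD, a transcription factor of the acute phase, had 9104 CPM in members and 4293 CPM under 1%, and STEAP4, a metalloreductase, had 54.1 CPM in members and 3.76 CPM under 1%. SOCS3, the feedback inhibitor of STAT3, stood at 15.9 CPM in members and 22.6 CPM under 1%. Of 12 complement genes, 1 (8.33%) was called, near the 8.93% of all genes that were higher. It was CFB, the protease of the alternative pathway, with 2034 CPM in members and 161 CPM under 1%, a ratio of 12.7 (12.3 to 13.1). C3, which CFB acts on, had 38.6 CPM in members and 46.7 CPM under 1%, and C1S and C1R of the classical pathway had 1086 and 1260 CPM in members, against 1173 and 1370 CPM under 1%. The complement median was -0.12 as measured and 0.16 relative to all genes.

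Interferon-induced genes gave a divided picture. Of 16 measured, 4 were higher and 1 lower (median log2 ratio 0.34, 0.62 relative to all genes). ISG15, the ubiquitin-like protein, had 1432 CPM in members and 381 CPM under 1%, RSAD2 had 60.9 CPM in members and 13.0 CPM under 1%, and ISG20, an exonuclease, had 57.9 CPM in members and 4.86 CPM under 1%. MX1 stood at 116 CPM in members and 140 CPM under 1%, IFI6 at 2111 CPM in members and 2904 CPM under 1%, and IRF1 at 284 CPM in members and 285 CPM under 1%. None of the 11 genes of MHC class I presentation was 2-fold higher and 2 (18.2%) were lower, near the 17.6% of all genes. B2M stood at 1962 CPM in members and 1683 CPM under 1%.

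Genes of prostaglandin synthesis were split, and several steroid-responsive genes were lower. PTGS2, the inducible cyclooxygenase, had 2361 CPM in members and 417 CPM under 1%, and PTGES, which makes prostaglandin E2, had 369 CPM in members and 175 CPM under 1%. PTGIS, prostacyclin synthase, had 230 CPM in members and 478 CPM under 1%, 2.08-fold lower but within 2-fold on the centred scale. PTGS1, the constitutive cyclooxygenase, stood at 11.0 CPM in members and 20.2 CPM under 1%. HPGD, which breaks prostaglandins down, had 106 CPM in members and 291 CPM under 1%. TSC22D3, a glucocorticoid-induced inhibitor of inflammation, had 40.0 CPM in members and 220 CPM under 1%, 5.49-fold lower in members (5.03 to 6). ZBTB16 had 65.2 CPM in members and 261 CPM under 1%, PER1 had 12.7 CPM in members and 57.4 CPM under 1%, and FKBP5 had 98.2 CPM in members and 221 CPM under 1%, all known to be induced by glucocorticoids. Of the 15 genes of this list, 3 were higher and 6 lower. A list of 13 glucocorticoid-induced genes chosen after seeing the data had 7 lower and 3 higher, with CEBPD, ERRFI1 and the metallothionein MT2A on the higher side.

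Several genes of clotting and plasminogen activation were higher. Of 15 matrix proteases and inhibitors, 5 were higher and 1 lower. PLAU, urokinase, had 274 CPM in members and 19.4 CPM under 1%, a ratio of 14.1 (12.9 to 15.5), and its receptor PLAUR had 316 CPM in members and 61.8 CPM under 1%. ADAMTS4, which cuts proteoglycans, had 1759 CPM in members and 363 CPM under 1%. MMP2 stood at 1104 CPM in members and 1440 CPM under 1% and MMP14 at 220 CPM in members and 286 CPM under 1%. In a wider list of clotting and plasminogen genes, chosen after seeing the data, 9 of 11 were higher and 0 lower. It included F3, tissue factor, at 1182 CPM in members and 233 CPM under 1%, and TFPI2, a serine protease inhibitor, at 6936 CPM in members and 1938 CPM under 1%. PLAU was at 384 CPM in newborn mast barcodes, so it was not limited to fibroblasts.

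Of 34 collagen and matrix genes, 8 (23.5%) were lower by 2-fold or more, near the 17.6% of all genes, and 1 was higher (median log2 ratio -0.62, -0.34 relative to all genes). On the centred scale 3 of the 34 were lower. COL3A1, a chain of fibrillar collagen, had 2129 CPM in members and 4806 CPM under 1%, 2.26-fold lower, and ELN, elastin, had 2093 CPM in members and 4795 CPM under 1%, 2.29-fold lower. Both lay within 2-fold when ratios were centred on the median of all genes. Over genes of at least 50 CPM, as these 2 are, that median was -0.00, so centring there would not move them. COL1A1 had 4626 CPM in members and 8605 CPM under 1%, and the small proteoglycan BGN had 72.2 CPM in members and 202 CPM under 1%. DCN was nearly level at 9139 CPM in members and 10748 CPM under 1%. The exception was THBS1, thrombospondin, with 1257 CPM in members and 200 CPM under 1%. Markers COL1A1 and COL3A1 belonged to the rule for fibroblasts in both groups alike.

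Growth factors differed by gene. FGF7, which acts on epithelium, had 328 CPM in members and 48.1 CPM under 1%. IGF1 stood at 27.3 CPM in members and 52.2 CPM under 1%, IGF2 at 3247 CPM in members and 4006 CPM under 1%, and IGFBP4 was lower at 9.90 CPM in members and 46.6 CPM under 1%. Of 11 TGF-beta ligands and targets, 2 (18.2%) were higher and 3 (27.3%) lower, against 8.93% and 17.6% of all genes. TGFB1 stood at 35.3 CPM in members and 19.6 CPM under 1% and TGFBI at 52.1 CPM in members and 137 CPM under 1%.

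**Figure D3:**
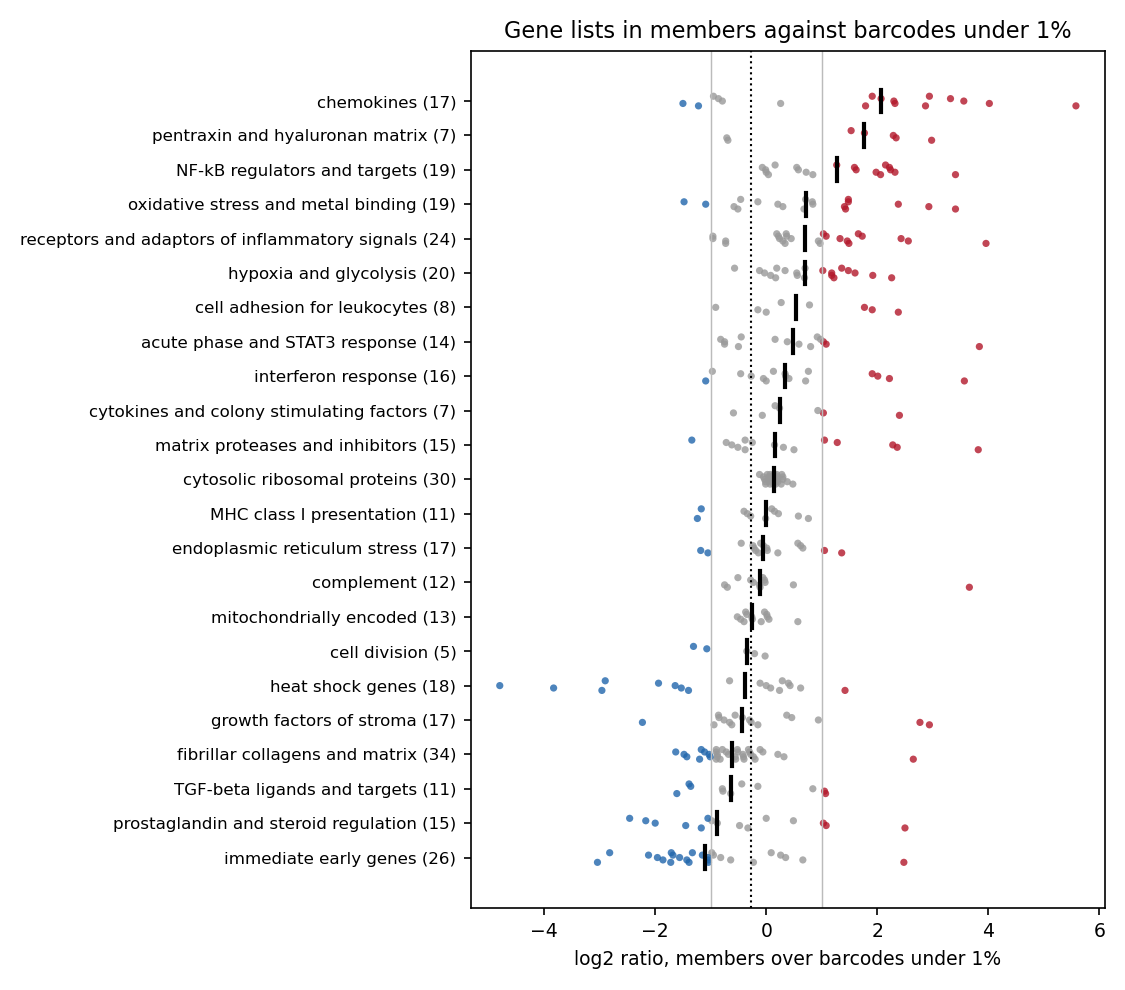
log2 ratio of members over barcodes under 1% (horizontal axis) for each measured gene of the lists with at least 5 such genes, without the lists chosen after seeing the data, number in brackets; red and blue points are at least 2-fold higher or lower in members, black bars are list medians, and the dotted line is the median of all genes at -0.28. Among the lists drawn, chemokines have the highest median, 2.07, and immediate early genes the lowest, -1.10.

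Heat shock and immediate early genes were among those with the largest differences in the other direction. HSPA1A, the inducible HSP70 chaperone, had 647 CPM in members and 9213 CPM under 1%, 14.3-fold lower (14 to 14.6). HSPA6 had 7.46 CPM in members and 208 CPM under 1%, with 4.28 CPM in members and 201 CPM under 1% without the 10 richest barcodes, and the cochaperone DNAJB1 had 164 CPM in members and 1220 CPM under 1%. The small chaperone HSPB1 had 319 CPM in members and 1228 CPM under 1% and HSPH1 had 120 CPM in members and 375 CPM under 1%. Of 18 heat shock genes, 8 (44.4%) were lower, against 17.6% of all genes. HSPA9 alone was higher, at 84.3 CPM in members and 31.5 CPM under 1%. Several other chaperones of the list lay within 2-fold. HSP90AA1 had 2800 CPM in members and 3019 CPM under 1%, HSP90AB1 2418 CPM in members and 1827 CPM under 1%, HSPD1 315 CPM in members and 257 CPM under 1%, and HSPA5 2160 CPM in members and 1407 CPM under 1%. The list median was -0.38, or -0.10 relative to all genes.

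Of 26 immediate early genes, 16 were lower and 1 higher (median log2 ratio -1.10, -0.82 relative to all genes), 16 of 26 against the 17.6% of all genes. JUN had 1502 CPM in members and 10571 CPM under 1%, 7.04-fold lower (6.94 to 7.14), and FOS, its partner in AP-1, had 427 CPM in members and 3514 CPM under 1%, 8.23-fold lower (8.02 to 8.45). EGR1 had 684 CPM in members and 2197 CPM under 1%, FOSB had 366 CPM in members and 1327 CPM under 1%, ATF3 had 348 CPM in members and 1028 CPM under 1%, and NR4A1 had 114 CPM in members and 442 CPM under 1%. FOSL1, a slower AP-1 subunit, was the exception with 99.7 CPM in members and 17.8 CPM under 1%. MYC stood at 812 CPM in members and 678 CPM under 1% and IER3 at 2770 CPM in members and 2607 CPM under 1%.

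The difference in these stress genes was one of spread as well as level. The immediate early list had a median of 1.59% of UMIs in members and 3.57% under 1%. Its 10th and 90th percentiles were 0.865 and 3.17% in members, against 0.665 and 7.23% under 1%. The heat shock list ran from 0.754 to 1.97% in members and from 0.455 to 4.44% under 1% by the same percentiles. Only 0.171% of members exceeded the 90th percentile of barcodes under 1% for heat shock genes, and 0.514% lay below the 10th. Members thus occupied a narrower range than barcodes under 1%, with a higher 10th and a lower 90th percentile for both lists. After thinning, 30.3% of members and 80.1% of barcodes under 1% held an HSPA1A UMI, with 36.1% in mast barcodes, and 23.5% of members and 67.8% of barcodes under 1% held a FOS UMI, with 38.1% in mast barcodes.

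Other genes lower in members were of mixed function. TXNIP, an inhibitor of thioredoxin and of glucose uptake, had 162 CPM in members and 2205 CPM under 1%, 13.6-fold lower (13.0 to 14.2). After thinning, 10.2% of members (30.7% unthinned), 71.0% of barcodes under 1% (85.9%) and 44.3% of mast barcodes held a UMI. SESN1, a p53 and FOXO target, had 21.9 CPM in members and 113 CPM under 1%, PIK3R1, a regulatory subunit of PI3 kinase, had 14.8 CPM in members and 76.2 CPM under 1%, and XPO1, the nuclear exporter, had 27.8 CPM in members and 152 CPM under 1%. SFRP2, a secreted WNT modulator, had 51.4 CPM in members and 256 CPM under 1%. AGTR1, the angiotensin receptor, had 44.0 CPM in members and 212 CPM under 1%, and PDLIM3, a muscle-type actin-associated protein, had 24.0 CPM in members and 121 CPM under 1%. RAB30 and PCMTD2 completed the 15, at 5.45 and 7.10 CPM in members, against 50.5 and 51.6 CPM under 1%.

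Metabolic and growth-related genes were higher in several lists. Of 20 hypoxia and glycolysis genes, 9 (45%) were higher, against 8.93% of all genes, and 0 lower (median log2 ratio 0.69, 0.97 relative to all genes). HK1, hexokinase, had 171 CPM in members and 35.7 CPM under 1%, the glucose transporters SLC2A1 and SLC2A3 had 110 and 287 CPM in members against 29.1 and 103 CPM under 1%, and GAPDH was near level at 649 CPM in members and 568 CPM under 1%. Of 19 genes of oxidative stress and metal binding, 7 were higher and 2 lower. SLC39A14, a zinc and iron importer, had 545 CPM in members and 71.8 CPM under 1%, a ratio of 7.60, and MT2A had 7579 CPM in members and 2820 CPM under 1%, whereas catalase (CAT) had 25.1 CPM in members and 70.3 CPM under 1%. Of 17 endoplasmic reticulum stress genes, 2 (11.8%) were higher and 2 (11.8%) lower, against 8.93% and 17.6% of all genes. Of 21 ribosome biogenesis genes, a list chosen after seeing the data, 20 were higher and 0 lower: NCL, nucleolin, had 1072 CPM in members and 388 CPM under 1%, and FBL, fibrillarin, had 572 CPM in members and 160 CPM under 1%. None of 30 cytosolic ribosomal protein genes was called in either direction.

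Genes of other newborn fibroblast types differed gene by gene, and the division genes MKI67 and TOP2A were near 0 in members. PI16 stood at 222 CPM in members and 351 CPM under 1%, and CLEC3B at 1265 CPM in members and 1288 CPM under 1%. Of 9 PI16 and CLEC3B fibroblast genes, 1 (11.1%) was higher, CD248, near the 8.93% of all genes, and 0 lower. PPARG, the regulator of fat cell formation, had 9.97 CPM in members and 8.36 CPM under 1%, while the lipid droplet protein PLIN2 had 1006 CPM in members and 274 CPM under 1%. POSTN, periostin, had 78.9 CPM in members and 63.0 CPM under 1% and ASPN had 46.0 CPM in members and 124 CPM under 1%. MKI67 and TOP2A, genes of dividing cells, had 1 UMI each among all 2334 members. Under 1% each was found in 12 barcodes, and 10 of these held 97.2% and 95.2% of the UMIs. Among other genes of dividing cells, HMGB2 had 49.5 CPM in members and 123 CPM under 1%, and PCNA stood at 67.1 CPM in members and 77.5 CPM under 1%.

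The levels of several genes shifted gradually with the share of the 3 genes. TNFAIP6 had 1792 CPM under 1%, 5894 CPM at 1 to 2%, 9082 CPM at 2 to 5%, 13651 CPM at 5 to 10%, 15370 CPM at 10 to 20% and 20025 CPM in the 21 barcodes at 20% or more. HSPA1A had 9213 CPM under 1%, then 3025, 1522, 730 and 398 CPM, and 259 CPM at 20% or more. NFKB1 had 81.7 CPM under 1%, then 219, 305, 396 and 445 CPM, and 498 CPM at 20% or more. COL1A1 had 8605 CPM under 1%, then 7130, 6338, 5076 and 3322 CPM, and 1594 CPM at 20% or more. Each of these 4 was ordered throughout.

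Other genes levelled off or turned. MT2A reached 7374 CPM already at 1 to 2% and stayed between 6981 and 9006 CPM above that, against 2820 CPM under 1%. NFKBIA was highest at 1 to 2%, with 1956 CPM, and had 1345 CPM at 20% or more. GRO1 had 914.7 CPM at 1 to 2%, 6279 CPM at 10 to 20% and 4523 CPM at 20% or more. Just inside and just outside the limit, TNFAIP6 had 11708 CPM inside and 9592 CPM outside, CFB 1764 CPM inside and 1467 CPM outside, HSPA1A 1053 CPM inside and 1131 CPM outside, and IL6 1034 CPM inside and 1150 CPM outside, from 250 barcodes inside and 293 outside. Some genes differed more: GRO1 had 3168 CPM inside and 2194 CPM outside, M-SAA3 had 48.0 CPM (37.5 to 60.5) inside and 5.40 CPM (2.59 to 9.93) outside, and CCL20 had 57 UMIs inside and 0 outside. Among all members, 10 barcodes held 72.2% of the M-SAA3 UMIs and 99.1% of the CCL20 UMIs. The values of these 2 genes may thus rest on few barcodes, which the intervals do not cover. Against all fibroblast barcodes under 5%, 201 genes were higher and 535 lower.

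**Figure D4:**
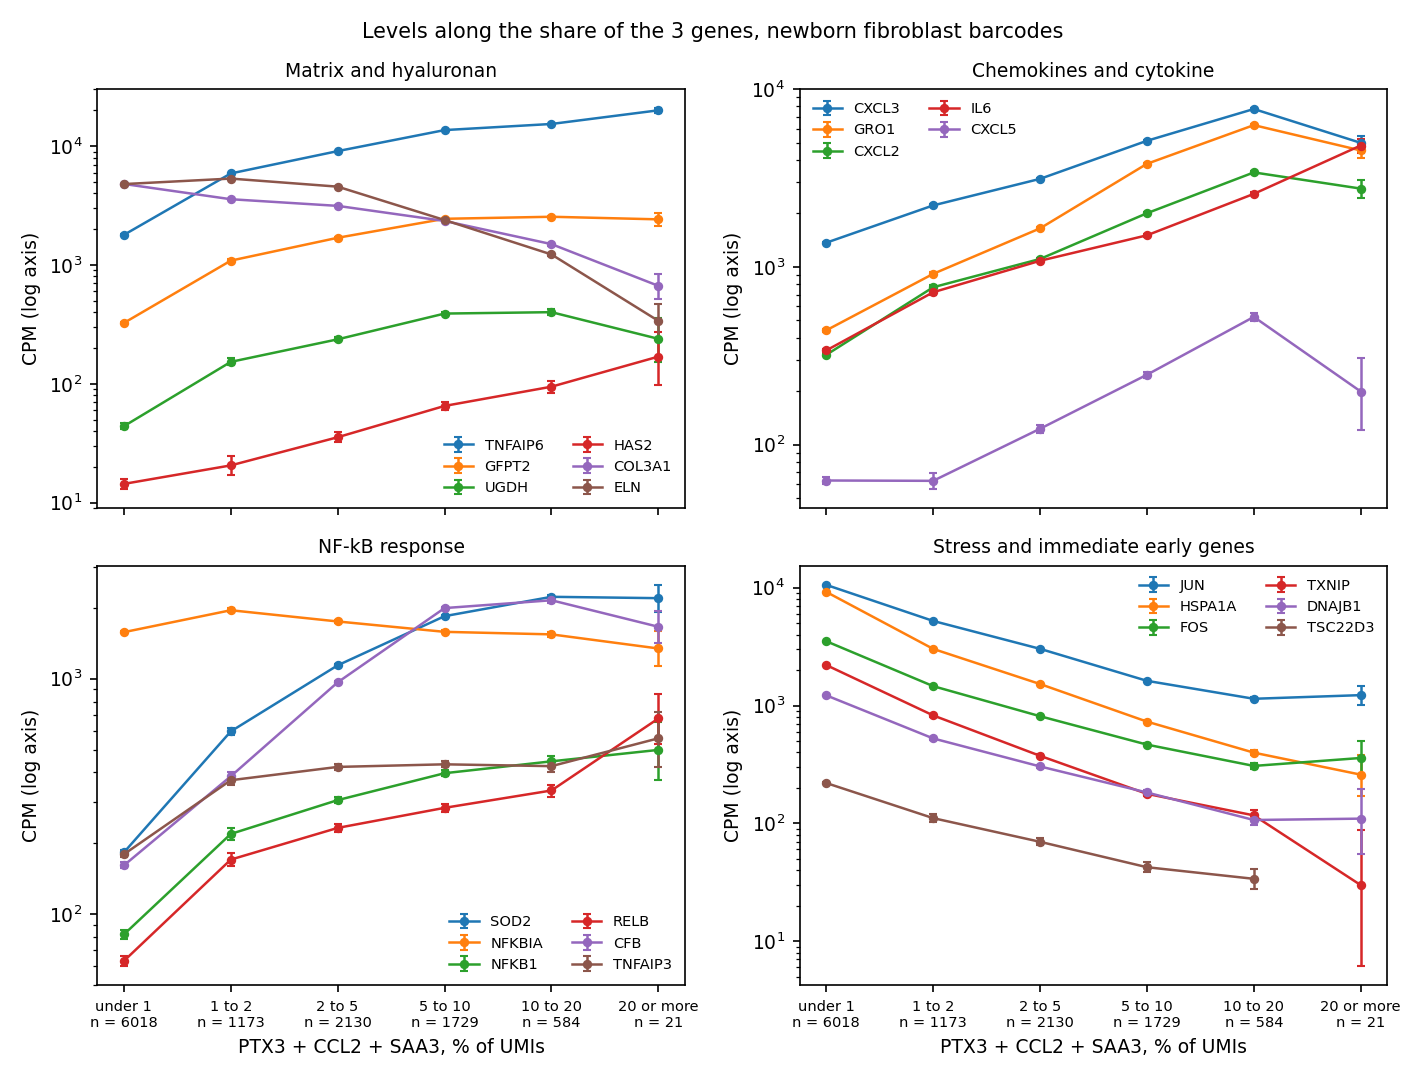
Level of selected genes (vertical log axis, CPM of UMIs other than those of the 3 genes, bars are exact Poisson 95% intervals) in newborn fibroblast barcodes grouped by their share of PTX3, CCL2 and SAA3 (horizontal axis, % of UMIs); an interval with 0 UMIs has no point. TNFAIP6 runs from 1792 to 20025 CPM and HSPA1A from 9213 to 259 CPM, and both are already shifted below 5%.

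Members led by PTX3 and by CCL2 were alike in most genes, with GRO1, CXCL2 and CXCL3 higher in CCL2-led members. This grouping uses the rule's genes and was chosen after seeing the data. Of 5517 genes, 32 (0.580%) were at least 2-fold higher in CCL2-led than in PTX3-led members and 10 (0.181%) lower. GRO1 had 8500 CPM in CCL2-led and 3311 CPM in PTX3-led members, a ratio of 2.57 (2.53 to 2.61). CXCL2 had 4210 CPM in CCL2-led members and 1826 CPM in PTX3-led members, CXCL3 had 9679 CPM in CCL2-led members and 4568 CPM in PTX3-led members, and CSF3, the growth factor of neutrophils, had 81.1 CPM in CCL2-led members and 31.5 CPM in PTX3-led members. CSF3 leaned on few barcodes as well: over all members it had 47.2 CPM, and 27.1 CPM without the 10 richest. CCL4, IL1B and CCL3 had the largest ratios, of 68.2, 66.2 and 33.4, and were held by few barcodes, as given above. Of the 8 members described above as rich in these genes and in macrophage-defining genes, 3 were CCL2-led. These ratios therefore do not describe CCL2-led members in general. NFKB1 was level at 418 CPM in CCL2-led members and 416 CPM in PTX3-led members, and TNFAIP6 stood at 12092 CPM in CCL2-led members and 15419 CPM in PTX3-led members.

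Members led by SAA3 were the most distinct. Of 5601 genes, 155 (2.77%) were at least 2-fold higher in SAA3-led than in PTX3-led members and 125 (2.23%) lower. M-SAA3 had 250 CPM in SAA3-led and 27.3 CPM in PTX3-led members. FABP4, a fatty acid carrier of fat cells and capillaries, had 147 CPM in SAA3-led members and 23.6 CPM in PTX3-led members, APOE had 170 CPM in SAA3-led members and 40.6 CPM in PTX3-led members, CCL19 had 135 CPM in SAA3-led members and 17.6 CPM in PTX3-led members, and the metallothionein MT2A had 14069 CPM in SAA3-led members and 7306 CPM in PTX3-led members. Among all members, 10 barcodes held 32.1% of the FABP4 UMIs, 47.4% of the APOE UMIs and 36.1% of the CCL19 UMIs. For M-SAA3 that share was 72.2%, so the values of these 4 genes may rest on few barcodes. PPARG had 25.4 CPM in SAA3-led members (39 UMIs), 7.76 CPM in PTX3-led members (68 UMIs) and 8.36 CPM in barcodes under 1%. The lower side held CFB at 493 CPM in SAA3-led and 2277 CPM in PTX3-led members, PROCR, the protein C receptor, at 31.9 CPM in SAA3-led members and 178 CPM in PTX3-led members, IL1RL1 at 50.7 CPM in SAA3-led members and 221 CPM in PTX3-led members, PI16 at 76.7 CPM in SAA3-led members and 246 CPM in PTX3-led members, and TNFSF15 at 3.25 CPM in SAA3-led members and 50.4 CPM in PTX3-led members.

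SAA3-led members nevertheless had the NF-kB subunits in common with the rest. Their levels of the stress genes named here lay between those of the other members and of barcodes under 1%. NFKB2 stood at 330 CPM in SAA3-led, 309 CPM in PTX3-led and 302 CPM in CCL2-led members, against 74.0 CPM under 1%. RELB stood at 367 CPM in SAA3-led, 287 CPM in PTX3-led and 296 CPM in CCL2-led members, against 63.0 CPM under 1%. HSPA1A had 932 CPM in SAA3-led, 529 CPM in PTX3-led and 805 CPM in CCL2-led members, against 9213 CPM under 1%. JUN had 2326 CPM in SAA3-led, 1262 CPM in PTX3-led and 1702 CPM in CCL2-led members, against 10571 CPM under 1%. FOS had 698 CPM in SAA3-led, 378 CPM in PTX3-led and 424 CPM in CCL2-led members, against 3514 CPM under 1%. EGR1 came closest to barcodes under 1%, with 1241 CPM in SAA3-led, 569 CPM in PTX3-led and 711 CPM in CCL2-led members, against 2197 CPM.

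**Figure D5:**
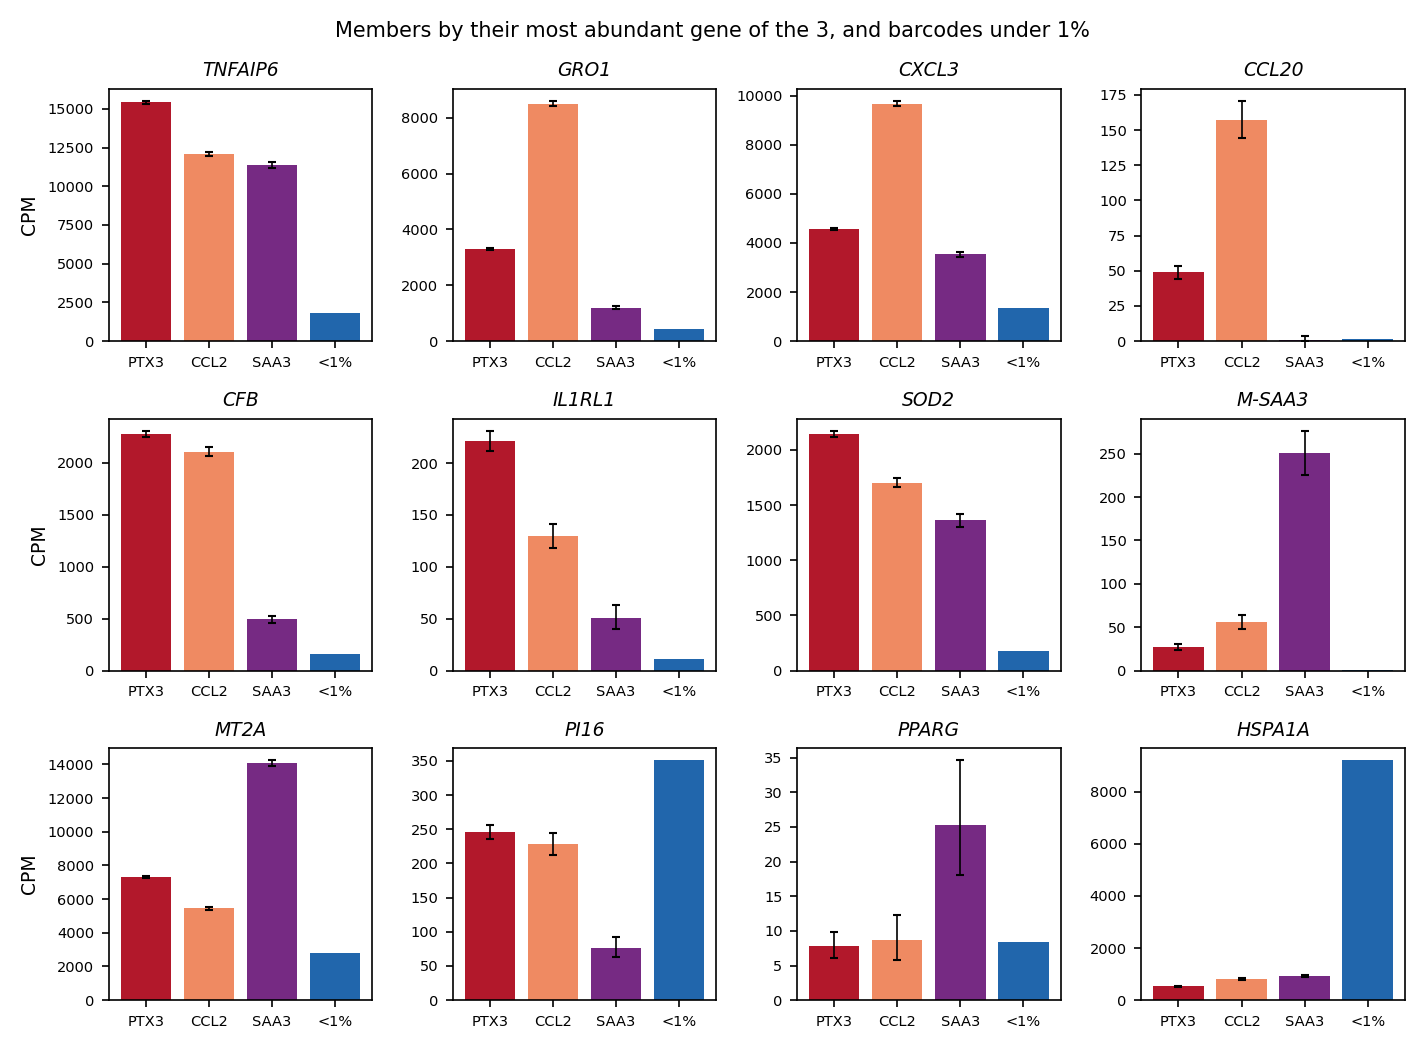
Level (CPM of UMIs other than those of the 3 genes, linear axis from 0, bars are exact Poisson 95% intervals) of 12 genes in 1459 PTX3-led, 576 CCL2-led and 291 SAA3-led members and in the 6018 barcodes under 1% (blue, no interval drawn). GRO1 and CXCL3 are highest in CCL2-led members, M-SAA3, MT2A and PPARG in SAA3-led members, and HSPA1A in barcodes under 1%.

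Few fibroblasts of the lactating adult met the rule. Of 283 adult fibroblast barcodes, 3 were at 5% or more, a share of 1.06% (0.219 to 3.07). They were CCL2 cells, with 694, 743 and 498 UMIs of CCL2, 21, 135 and 46 UMIs of PTX3 and 0 of SAA3. The 3 genes made up 7.79, 6.79 and 5.16% of their UMIs. They had 165, 209 and 200 UMIs of the fibroblast markers and 1, 9 and 0 UMIs of the T and NK markers, so the barcode at 6.79% carried both kinds. Stage, animal and handling cannot be told apart with 1 library each.

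A wider adult group, chosen after seeing the data, showed part of the same differences. It held the 14 adult fibroblast barcodes at 1% or more, against 269 under 1%, and these 14 were far deeper, with a median of 10734.5 UMIs in the 14 and 3078 UMIs in the 269. TNFAIP6 had 1928 CPM in the 14 and 245 CPM in the 269, a ratio of 7.88 (6.73 to 9.22). GRO1 had 22439 CPM in the 14 and 1577 CPM in the 269, IL6 had 1787 CPM in the 14 and 206 CPM in the 269, SOD2 had 1086 CPM in the 14 and 147 CPM in the 269, CFB had 1510 CPM in the 14 and 116 CPM in the 269, and PTGS2 had 3196 CPM in the 14 and 174 CPM in the 269. HSPA1A was lower at 506 CPM in the 14 and 1267 CPM in the 269, and so was TXNIP at 600 CPM in the 14 and 1468 CPM in the 269.

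The AP-1 genes did not follow in the adult. JUN had 7053 CPM in the 14 barcodes at 1% or more and 3527 CPM under 1%, a ratio of 2 (1.87 to 2.14), and FOS had 1456 CPM in the 14 and 1263 CPM in the 269. COL1A1 was near level at 1632 CPM in the 14 and 1797 CPM in the 269, CXCL5 stood at 115 CPM in the 14 and 106 CPM in the 269, and M-SAA3 was lower at 20.2 CPM in the 14 and 194 CPM in the 269. IL1RL1 had 0 UMIs in both adult groups, and CCL20 had 33 UMIs in the 14 barcodes and 0 in the 269. The adult values rest on 3328 UMIs of GRO1 but on 30 of NFKB1 in the 14 barcodes, and the difference between the stages was not tested.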

How the data were processed

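The authors deposited raw UMI counts of 2 libraries (newborn and adult) as gene by barcode matrices, not normalised. Per the submitters' processing notes, Cell Ranger 3.1.0 was used. A genome build is not given in the sources used here, and neither coordinates nor sequences are printed. Genes were matched by the symbols in the files.

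UMIs were summed over the barcodes of a group with numpy 2.4.6 and scipy 1.17.1 and divided by the summed UMIs other than those of PTX3, CCL2 and SAA3, which the rule had used. Genes with a mean of 10 CPM over the 2 groups were compared, and 2-fold was the size limit. Ratios have exact conditional binomial intervals of 95%, levels exact Poisson intervals and shares exact (Clopper-Pearson) intervals. log2 ratios used a prior of 0.5 UMIs. The script was tested on simulated data. Members had a total of 15257273 UMIs and barcodes under 1% 26647213, which sets the precision. Thinning drew 1000 UMIs per barcode (seed 1).

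Doublets were kept. Scrublet as run by scanpy 1.11.5 marked 0% by its automatic threshold, which does not show that doublets were absent. An alternative left out the 1517 barcodes with the highest scores, 11% of the library, the rate expected for its number of barcodes.

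Named genes were the 15 largest and 15 smallest ratios with a symbol and at least 50 CPM in the higher group, without mitochondrial, ribosomal protein and milk protein genes. From each of the 40 gene lists, genes with the largest and smallest ratios were named, with some others chosen for their role after their values were seen. Some genes that these rules name are not reported here. The members, lists and rules were chosen with earlier results of these data known, and 4 lists, the groups by leading gene and the adult group at 1% were added after the data had been seen. Alternatives covered the limits of the rule, the filters, the scaling, thinning and doublets.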

Additional observations from a re-analysis of the deposited data

How the results depend on the processing

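No paired analysis was possible because each stage has 1 library and the comparisons are within 1 of them. The number of members was 4464 with a limit of 2% and 605 with 10%. Centring on the median of ratios gave 847 genes higher and 592 lower in members, with no filter beyond 20 UMIs 3709 were lower, a filter at 50 CPM left 317 higher and 170 lower, and against all fibroblast barcodes under 5% there were 201 higher and 535 lower. The other alternatives stayed within 1.5 times of 555 and 1097. Of 65 genes followed under 17 alternatives, CCL4 alone changed direction, with a log2 ratio of -0.74 without the 10 barcodes richest in it. CSF1 and PTGES most often dropped under 2-fold, and CCL20 did so without its 10 richest barcodes. COL3A1 and ELN did so on the centred scale. With barcodes of 4000 to 8000 UMIs in both groups, 620 genes were higher and 921 lower, at a median of 5839 UMIs in members and 5261 UMIs under 1%. That alternative, the marker filter and the leaving out of the richest barcodes were chosen after seeing the data. Genes under 10 CPM were beyond the reach of the comparison, and the spread between animals is unknown.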

Other observations

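Genes not named in the comparisons also differed between members and newborn fibroblast barcodes under 1%. The examples here were chosen after their values were seen, among genes past 2-fold on both the measured and the centred scale, and carry no test. SDC4, a heparan sulfate proteoglycan, had 945 CPM in members and 182 CPM under 1%, ITGA5, the alpha chain of the fibronectin receptor, had 708 CPM in members and 189 CPM under 1%, and PDPN, podoplanin, had 774 CPM in members and 245 CPM under 1%. SLPI, a secreted inhibitor of leukocyte proteases, had 676 CPM in members and 104 CPM under 1%. EIF4A1, the helicase of translation initiation, had 2346 CPM in members and 925 CPM under 1%, and SLC1A5, a glutamine transporter, had 730 CPM in members and 223 CPM under 1%. BIRC3, an inhibitor of cell death downstream of TNF receptors, had 496 CPM in members and 165 CPM under 1%.

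On the lower side, GADD45B, a stress-induced regulator of kinase signalling, had 490 CPM in members and 1324 CPM under 1%. CDKN1C, an inhibitor of cyclin-dependent kinases, had 142 CPM in members and 493 CPM under 1%, and ID3, an inhibitor of helix-loop-helix factors, had 104 CPM in members and 401 CPM under 1%. CITED2, a transcriptional coregulator, had 141 CPM in members and 372 CPM under 1%. GAS6, the ligand of the TAM receptors, had 102 CPM in members and 285 CPM under 1%.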
